A study of Drosophila melanogaster with 18 samples.

Results

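Mitochondrial fatty acid oxidation was followed through 9 genes in the RNA of 18 single Drosophila melanogaster heads. The genes are 8 enzymes of the pathway, whd, CPT2, Mcad, Arc42, Mtpalpha, Mtpbeta, scu and yip2, and the nuclear receptor Hnf4. They were listed by their known place in the pathway, with earlier results of these data known, and found by symbol among the 17559 genes with a value, and all 9 were among the 11062 genes tested. Starved female flies were exposed to an odor alone (odor), trained with it and Sorbose (sorbose), or trained with it and Sucrose (sucrose). Each group had 6 flies, and trained animals were taken 4 h later. Sorbose tastes sweet to flies and has no food value for them, and sucrose is both sweet and nutritious. The odor flies are labelled naive with no sugar and carry no collection time, so sugar, training and time cannot be told apart in a difference from them. The labels give no strain, age or batch, and each library is the whole head of 1 fly.

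In this pathway, whd (withered, the carnitine palmitoyltransferase of the outer mitochondrial membrane) joins long-chain fatty acids to carnitine, and CPT2 returns them to coenzyme A inside the mitochondrion. Each turn of the beta-oxidation spiral then takes an acyl-CoA dehydrogenase, an enoyl-CoA hydratase, a 3-hydroxyacyl-CoA dehydrogenase and a thiolase, and releases acetyl-CoA. Mcad and Arc42 encode acyl-CoA dehydrogenases, Mtpalpha and Mtpbeta the subunits of the mitochondrial trifunctional protein, scu a 3-hydroxyacyl-CoA dehydrogenase and yip2 a 3-ketoacyl-CoA thiolase. In Drosophila larvae Hnf4 is known to be needed for the expression of beta-oxidation genes when food is withheld. The fly head holds the brain and eyes together with muscle and fat body, and the latter are the tissues best known for burning and storing fat.

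The library sizes recovered from the values were 45.8 to 77.2 M reads (M, 1000000), which gave 875 reads (Arc42, the fewest) to 42115 reads (Mcad, the most) per fly for a gene of the set. Such counts make counting error small beside the differences between flies. Levels are given as RPKM (reads scaled to gene length in kilobases and to M reads in the library), which allows genes of different length to be compared. Markers of neurons, glia and photoreceptors were present in every fly, and none of the neuron or photoreceptor markers was called against odor. Of 5 glia markers, Eaat1 and repo were called higher and moody lower in sucrose flies, and moody lower in sorbose flies. Of 7 muscle markers, Act88F was called higher in both. The 3 oenocyte markers had a summed level of at most 0.195 RPKM. Summed fat body markers (5 genes) ran from 41.7 to 272.7 RPKM in odor, 113.2 to 338.6 in sorbose and 243.4 to 998.0 in sucrose flies. Of these 5, 3 were called higher in sucrose than in odor flies and 2 in sorbose than in odor flies. Among all genes tested, 13.1% were called higher for sucrose and 12.2% for sorbose. Summed muscle markers (7 genes) ran from 1481 to 3984, from 1256 to 4205 and from 1792 to 4031 RPKM. In RNA of a whole head, fewer cells of a type and less RNA per cell cannot be told apart.

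Over all 18 flies Mcad had the highest mean level of the 9 genes, 177.4 RPKM, followed by yip2 (145.0), scu (91.5), Mtpbeta (87.1), whd (70.0), Mtpalpha (55.2), Arc42 (20.6), CPT2 (16.3) and Hnf4 (12.8). Mcad lay above yip2 in 18 of 18 flies and yip2 above scu in 17. The neighbours scu and Mtpbeta were not ordered, since scu was higher in 9 of the 18 flies, and CPT2 was above Hnf4 in 12. Transcripts of Mcad lay above 97.55% of all genes in the table and those of Hnf4 above 71.56%.

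The value of Mcad cannot be given to that gene alone. On chromosome 3L (7719350 to 7721472, plus strand, dm6), 1353 bases or 92.61% of its exons also lie in exons of CG7457 on the opposite strand, and the libraries do not mark strand. The profiles of both over the 18 flies, after the group means were removed, had a Pearson r of 0.9999. For the other members the shared part was at most 5.73% of the exons (whd with asRNA:CR45134, and 5.39% with CG11777).

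**Figure D1:**
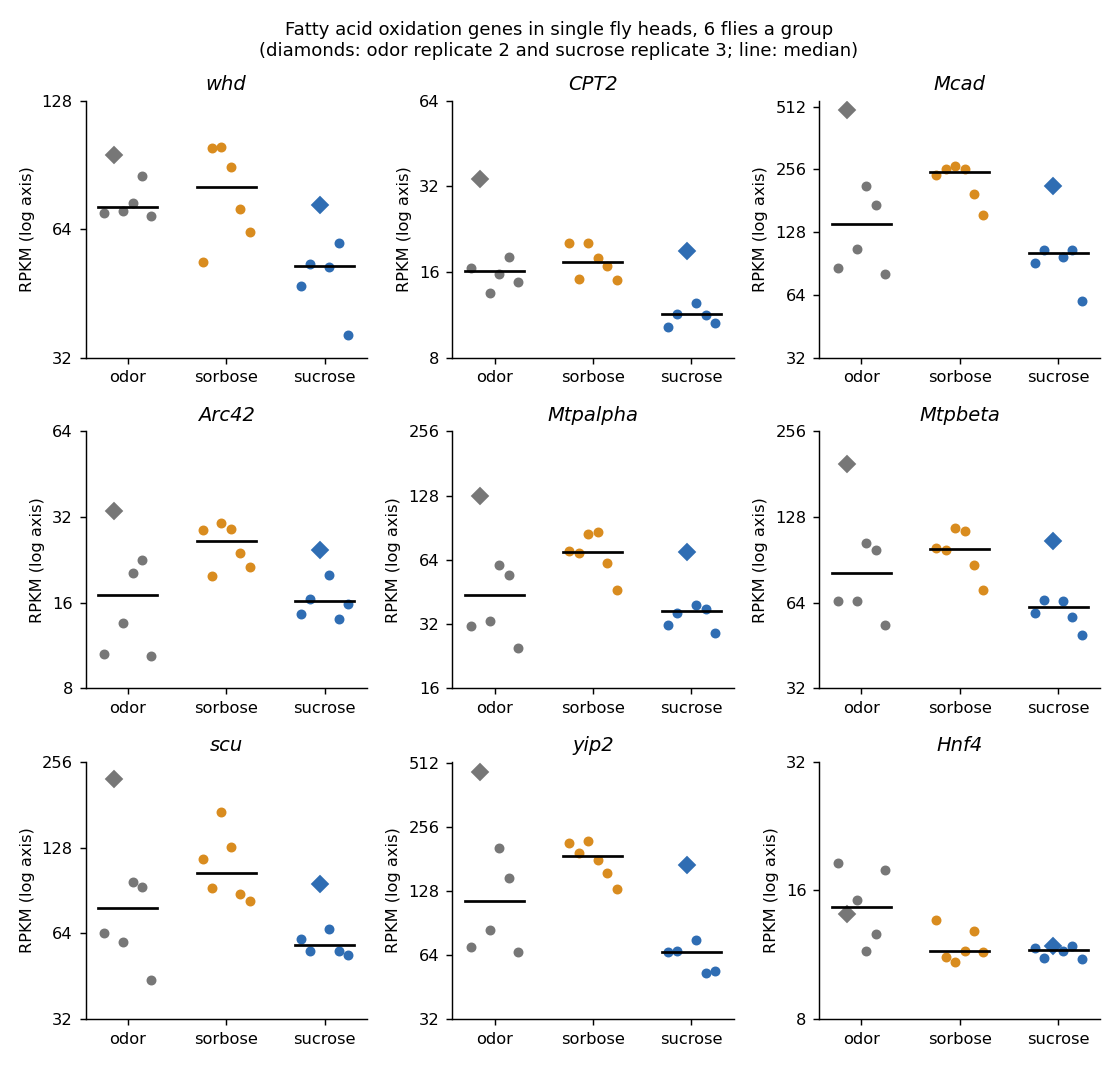
RPKM of each gene (log axis) in the 6 odor, 6 sorbose and 6 sucrose flies. Each point is a fly, lines are group medians and diamonds mark odor replicate 2 and sucrose replicate 3, which have the highest value of their group for all 8 enzymes. The Hnf4 values of sucrose flies lie between 11.0 and 11.9 RPKM, and those of odor flies between 11.5 and 18.6.

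Transcripts of whd and CPT2, the 2 carnitine palmitoyltransferases, were lower in sucrose-trained flies than in flies that had the odor alone. For whd (chromosome 2R, 10469473 to 10478567, minus strand) the odor flies had 68.8, 72.1 and 95.5 RPKM (lowest, median and highest), the sorbose flies 53.6, 80.3 and 99.6, and the sucrose flies 36.3, 52.6 and 73.0. Of the 6 sucrose flies, 5 lay below every odor fly, and replicate 3 overlapped them. The log2 difference between sucrose and odor was -0.55 ± 0.17 (SE, n = 6 flies a group), 1.46-fold lower, with an adjusted p of 0.0235 in limma with Benjamini-Hochberg adjustment over all genes tested. Between sorbose and odor it was 0.01 ± 0.17 (adjusted p = 0.970, 95% interval -0.34 to 0.37).

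CPT2 (chromosome 3L, 2981022 to 2983551, plus strand) showed the same order at a lower level. Its lowest, median and highest RPKM were 13.5, 16.2 and 33.9 with odor alone, 15.0, 17.4 and 20.3 after sorbose and 10.3, 11.4 and 19.0 after sucrose. Again 5 of the 6 sucrose flies lay below every odor fly and below every sorbose fly, and replicate 3 lay within both ranges. CPT2 was 1.44-fold lower in sucrose than in odor flies (log2 difference -0.53 ± 0.19, adjusted p = 0.0451), and the difference between sorbose and odor was -0.03 ± 0.19 (adjusted p = 0.929).

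These calls sit close to the threshold. In the sucrose and odor comparison 3 of the 9 genes were called, whd, CPT2 and Hnf4, all lower. Over all 11062 genes 14.4% were called lower and 13.1% higher, and the median log2 difference was -0.43 over the 9 genes and -0.0012 over all genes tested. Without odor replicate 2, whd (adjusted p = 0.0510) and CPT2 (adjusted p = 0.0695) were no longer called, and without sucrose replicate 6 the values were 0.0505 and 0.0804. Over 28 alternative fits the call of whd was kept in 26 and that of CPT2 in 12.

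**Figure D2:**
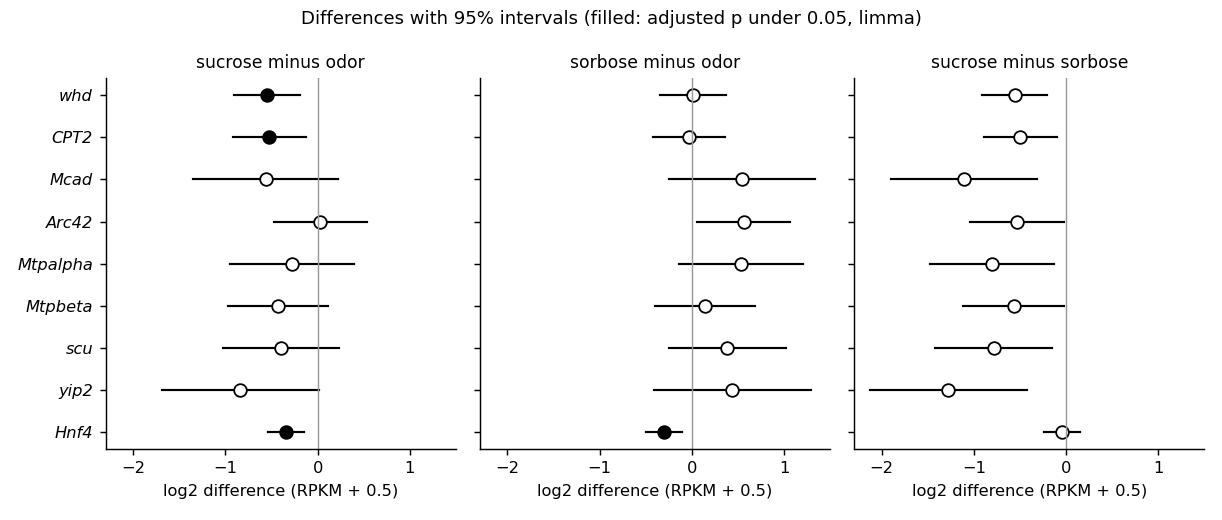
Differences in log2(RPKM + 0.5) for the 3 comparisons, as points with 95% intervals from the limma fit (6 flies a group), filled where the adjusted p is under 0.05. Filled points are whd, CPT2 and Hnf4 for sucrose against odor and Hnf4 for sorbose against odor; in the third panel the 8 enzymes lie between -0.50 and -1.28 with open points.

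The acyl-CoA dehydrogenases had their highest medians in sorbose flies and varied widely among odor flies. The locus of Mcad and CG7457 had 80.5, 139.6 and 491.4 RPKM (lowest, median and highest, values of Mcad) in odor flies, 154.5, 249.1 and 265.8 in sorbose flies and 59.7, 101.2 and 213.9 in sucrose flies. The odor flies reached from below the lowest sorbose fly to above every trained fly, and 1 sucrose fly lay below every odor fly. Also, 5 of 6 sucrose flies lay below every sorbose fly. For sucrose against odor the log2 difference was -0.57 ± 0.37 (adjusted p = 0.285) and for sorbose against odor 0.54 ± 0.37 (adjusted p = 0.311).

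Arc42 (chromosome 3R, 19877737 to 19879309, plus strand) had 10.4, 17.0 and 33.7 RPKM in odor flies, 19.9, 26.4 and 30.5 in sorbose flies and 14.1, 16.2 and 24.4 in sucrose flies. All 6 sorbose flies were above the odor mean of 18.5 RPKM, and the odor flies overlapped both other groups. The difference between sorbose and odor was 0.56 ± 0.24 (adjusted p = 0.0962), and between sucrose and odor it was 0.03 ± 0.24 (adjusted p = 0.950, 95% interval -0.48 to 0.53).

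The trifunctional protein carries out the later steps for long-chain substrates, with Mtpalpha as hydratase and dehydrogenase and Mtpbeta as thiolase. Mtpalpha (chromosome 2L, 9573563 to 9576769, minus strand) had 24.7, 43.6 and 128.0 RPKM with odor alone, 46.1, 69.8 and 86.5 after sorbose and 29.2, 36.7 and 69.6 after sucrose. Mtpbeta (chromosome 2R, 23866648 to 23868603, minus strand) had 53.3, 81.3 and 195.9, then 71.0, 98.7 and 116.9, then 49.1, 61.8 and 105.5 RPKM in the same groups. For both subunits 5 of the 6 sucrose flies were below every sorbose fly. Neither was called against odor, with log2 differences of -0.28 ± 0.32 (Mtpalpha) and -0.43 ± 0.26 (Mtpbeta) for sucrose and of 0.53 ± 0.32 and 0.14 ± 0.26 for sorbose. Without odor replicate 2 the values for sucrose were 0.01 and -0.20, so that the sign of Mtpalpha turned.

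The ratio of Mtpbeta to Mtpalpha, both in RPKM, was not constant. It was 1.32 to 1.54 in sorbose flies (median 1.40), 1.51 to 1.85 in sucrose flies (median 1.66) and 1.53 to 2.16 in odor flies (median 1.88). The sorbose flies thus had the lowest ratios, with replicate 6 of that group overlapping both others. Among odor flies the lowest ratio, 1.53, was that of replicate 2, the fly with the most of both transcripts. The ratio was formed after the values had been seen and was not tested.

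The last enzymes of the spiral, scu and yip2, also had their highest medians in sorbose flies. Transcripts of scu (chromosome X, 18091259 to 18092853, plus strand) were at 44.0, 78.7 and 222.6 RPKM in odor flies, 82.9, 104.5 and 170.2 in sorbose flies and 53.7, 58.3 and 95.3 in sucrose flies. For yip2 (chromosome 2L, 9915253 to 9917220, plus strand) the values were 65.7, 115.2 and 463.9, then 130.9, 185.8 and 218.6, then 52.4, 66.3 and 169.6 RPKM. In both genes every sucrose fly lay below the odor mean, but the odor flies reached down to the sucrose values and up beyond the sorbose values. Against odor the log2 differences of yip2 were -0.84 ± 0.40 for sucrose (adjusted p = 0.133) and 0.44 ± 0.40 for sorbose (adjusted p = 0.464), and those of scu were -0.40 ± 0.30 (adjusted p = 0.347) and 0.39 ± 0.30 (adjusted p = 0.374). Without odor replicate 2 the differences between sucrose and odor were -0.48 for yip2, -0.12 for scu and -0.23 for Mcad.

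Sucrose and sorbose flies were then compared directly, which sets a sweet sugar with food value against one without. No gene of the 9 passed the adjusted threshold in limma, where 1 of the 11062 genes did (0.00904%). At an unadjusted p under 0.05 all 8 enzymes were lower in sucrose flies (p from 0.00405 to 0.0405, adjusted p from 0.207 to 0.459), where 5.85% of all genes were. The yip2 level was 2.42-fold lower (log2 difference -1.28 ± 0.40, adjusted p = 0.238) and that of Mcad with CG7457 2.16-fold lower (-1.11 ± 0.37, adjusted p = 0.263). Values for the others were -0.81 (Mtpalpha), -0.79 (scu), -0.57 (Mtpbeta), -0.56 (whd), -0.53 (Arc42) and -0.50 (CPT2). The SE and p-values here come from 1 fit of the 3 groups, so the spread of the odor flies enters them. With only the sucrose and sorbose flies fitted in limma, p for the 8 enzymes ran from 0.000296 (yip2) to 0.0110 (whd). Their adjusted p ran from 0.0719 to 0.225, and none was called. The genes move together from fly to fly, so the 8 values are not 8 separate observations.

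Summed over the 8 enzymes, 5 of the 6 sucrose flies had 308.4 to 428.2 RPKM and the sixth, replicate 3, had 770.3. The 6 sorbose flies had 584.8 to 1006 RPKM, all above those 5 sucrose flies, and the odor flies had 362.2 to 1665 RPKM. Without sucrose replicate 3 the log2 difference was -1.52 for yip2 (adjusted p = 0.149) and -1.32 for Mcad (adjusted p = 0.172). With flies weighted by their quality in limma, in place of equally, yip2 was called (adjusted p = 0.0315) as 1 of 308 genes.

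The sorbose and odor comparison gave 1 call among the 9 genes, Hnf4, where 12.2% of all genes were called lower and 12.2% higher. The median log2 difference was 0.39 over the 9 genes and 0.0067 over all genes tested. Odor replicate 2 moved this count more than any other fly left out. Without it 5 genes were called, Hnf4 lower and Arc42 (log2 difference 0.76, adjusted p = 0.0170), Mtpalpha (0.82, 0.0286), scu (0.67, 0.0415) and Mcad (0.88, 0.0420) higher in sorbose flies. With a fly left out, 1771 to 3179 genes were called in all for this comparison. The share in the fit without odor replicate 2 is not given here, so the count of 5 is not set against it.

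Hnf4 was lower in both trained groups than in odor flies. On chromosome 2L (8687226 to 8709611, minus strand), it had 11.5, 14.6 and 18.6 RPKM in odor flies, 10.9, 11.5 and 13.6 in sorbose flies and 11.0, 11.6 and 11.9 in sucrose flies. All 12 trained flies were below the odor mean of 15.0 RPKM, and the lowest odor fly, replicate 4, lay inside the range of both trained groups. It was 1.27-fold lower in sucrose than in odor flies (log2 difference -0.35 ± 0.09, adjusted p = 0.0127) and 1.23-fold lower in sorbose than in odor flies (-0.30 ± 0.09, adjusted p = 0.0286), comparisons that share the odor flies. Between the trained groups the difference was -0.04 ± 0.09, with a 95% interval of -0.24 to 0.15 (adjusted p = 0.930).

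The call of Hnf4 for sucrose was kept in all 28 alternative fits (adjusted p from 0.00185 to 0.0344). For sorbose it was kept in 21 of the 28 (adjusted p from 0.00485 to 0.0781) and lost without odor replicate 1, 3 or 6, without sorbose replicate 3, 4 or 6, and when only those groups were fitted. The range among flies shrank from 1.61-fold in odor to 1.25-fold in sorbose and 1.08-fold in sucrose flies (highest over lowest).

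**Figure D3:**
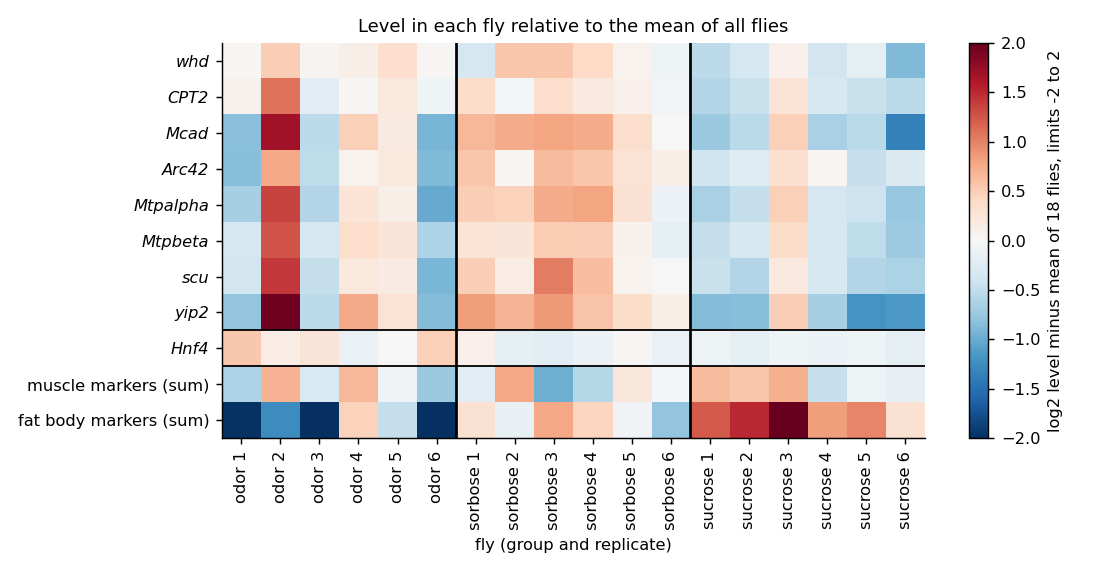
Level of the 9 genes and of the summed muscle and fat body markers in each fly, as log2(RPKM + 0.5) minus the mean of the 18 flies. Odor replicates 2, 4 and 5 and sucrose replicate 3 are red or pale red for most enzymes while the other odor and sucrose flies are blue for most. The Hnf4 row is nearly white outside odor replicates 1, 3 and 6. Fat body values under -2 are drawn at -2, and that of sucrose replicate 3, above 2, is drawn at 2.

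The enzymes varied as a block from fly to fly. Odor replicate 2 had the highest value of its group for 8 of 8 enzymes and replicate 6 the lowest for 7, and their summed levels were 1665 and 362.2 RPKM. Sucrose replicate 3 was highest for 8 of 8 enzymes. In the sorbose group replicate 3 was highest for 6 and replicate 6 lowest for 6 of the 8, with sums of 1006 and 584.8 RPKM. Within the odor group the largest spread was that of yip2, 7.06-fold, against 1.67-fold in sorbose and 3.24-fold in sucrose flies.

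Other values moved with these flies. Summed muscle markers were 3984 RPKM in odor replicate 2 and 1481 in odor replicate 6, the highest and lowest of that group, and 4031 in sucrose replicate 3, the highest of its group. They were lowest (1256 RPKM) in sorbose replicate 3, where the enzymes were highest. Odor replicate 4 had a sum of 3892 RPKM. Among odor flies only Act57B (2047 RPKM) was highest in replicate 2. Mhc, Mlc2, up, sls and bt were highest in replicate 4 and Act88F in replicate 3. Replicate 6 was lowest for Mhc, Act57B and Act88F, and replicate 1 for Mlc2, up, sls and bt. Summed fat body markers were 998.0 RPKM in sucrose replicate 3, the highest of all flies, but 82.2 in odor replicate 2, below 141.2 in replicate 5 and 272.7 in replicate 4. In sucrose replicate 3 most of this sum was Lsp2 (501.4) and apolpp (433.5), both highest of the group. Its Apoltp (24.1), Mtp (21.7) and to (17.2) were not the highest. Of its muscle markers Mhc, Mlc2, up and Act57B were highest of the group, and Act88F (4.55), sls (11.4) and bt (30.1) were not. Reads recovered in genes with whole counts made up 96.1% and 94.0% of the library size in odor replicate 2 and sucrose replicate 3, and 82.9% to 93.7% in the other flies. The part of cell makeup and of library composition in the enzyme levels was not tested.

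After removal of the group means, 6 of the 7 other enzymes were among the 100 genes most like CPT2, Mtpalpha, Mtpbeta, yip2 or scu over the 18 flies, and 5 of 7 for Mcad and Arc42. For whd the number was 3, and for Hnf4 none of the 8 enzymes was there. Outside the set, and leaving out genes that overlap the member itself (CG7457 for Mcad), the most like genes had Pearson r of 0.80 to 0.98. Hsdl2, named as a hydroxysteroid dehydrogenase-like gene, was most like yip2 (r = 0.97) and scu (r = 0.96) and second for Mtpalpha (r = 0.97), where CG7457 (the locus shared with Mcad) came first (r = 0.98). CG9577 came first for Mtpbeta (r = 0.98) and Mcad (r = 0.97), with CG11151 second for Mcad (r = 0.96) and CG17597 for scu (r = 0.96).

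For Arc42 the most like genes were Mfe2, a peroxisomal multifunctional beta-oxidation enzyme (r = 0.96), and Phb2, a mitochondrial prohibitin (r = 0.96). Lsd-2, a perilipin of lipid droplets, was second for whd (r = 0.80), after a gene given only by its identifier, FBgn0033466 (r = 0.82). CPT2 had asRNA:CR45831 and CG12375 (r = 0.94 each), and Hnf4 had CG5346 and CG12111 (r = 0.92 each). These values describe the same 18 libraries, and all genes of a library share its depth and cell makeup. They include odor replicate 2 and sucrose replicate 3, the flies with the highest enzyme values of their groups. Values of r without these flies are not given here.

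Hnf4 and the enzymes were also compared across the 18 flies within groups, as 8 relations. Pearson r ran from -0.07 (CPT2) to -0.54 (Arc42), and no relation passed adjustment by a permutation test (adjusted p from 0.281 to 0.874), nor by Spearman's rho (-0.10 to -0.55, adjusted p from 0.130 to 0.720). Without the 2 flies farthest from the median of Hnf4 after its log2 values were centred on the group means, odor replicates 1 and 4, r was -0.14 to -0.44. In the 6 odor flies r was between -0.21 and -0.75, in the 6 sorbose flies between -0.80 (whd) and 0.32 (CPT2), and in the 6 sucrose flies, whose Hnf4 levels differ by less than 1 RPKM, between 0.24 and 0.74. The difference between groups was not tested.

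Of the neighbouring lists, fatty acid activation and carnitine transfer had 5 genes tested. In sucrose flies pdgy, an acyl-CoA synthetase, fell from a mean of 35.8 RPKM in odor to 24.1 (log2 difference -0.55 ± 0.10, adjusted p = 0.000988), and every sucrose fly (21.7 to 28.4 RPKM) was below every odor fly (29.5 to 47.1). In sorbose flies Acsl, a long-chain acyl-CoA synthetase, rose from 75.5 to 107.6 RPKM (0.51 ± 0.12, adjusted p = 0.00653), with 91.0 RPKM in the lowest sorbose fly and 90.5 in the highest odor fly. No other gene of this list was called. Over all genes tested, 14.4% were called lower for sucrose and 12.2% higher for sorbose. The share of all genes without overlap between groups is not given here.

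Among 12 other mitochondrial beta-oxidation enzymes, 2 were called higher and 1 lower in sucrose than in odor flies, and 1 higher in sorbose flies. Over all genes tested, 13.1% were called higher and 14.4% lower for sucrose, and 12.2% higher for sorbose. Had2, a 3-hydroxyacyl-CoA dehydrogenase, rose from 6.34 to 13.7 RPKM in sucrose flies (log2 difference 1.26 ± 0.34, adjusted p = 0.0117), and CG4598 fell from 43.7 to 25.5 RPKM (-0.68 ± 0.23, adjusted p = 0.0357). Srlp rose in both trained groups, by 0.21 (sucrose) and 0.24 (sorbose) on the log2 scale. The electron transfer flavoproteins, 2 genes tested, had no call.

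Peroxisomes shorten very long fatty acids with acyl-CoA oxidases, and these genes split. Of 8 genes tested, 4 were called higher and 1 lower in sorbose, and 2 higher and 2 lower in sucrose flies, each against odor. Over all genes the shares called higher and lower were 12.2% and 12.2% for sorbose and 13.1% and 14.4% for sucrose. Acox57D-d rose from 2.67 RPKM in odor to 6.40 in sorbose (log2 difference 1.11 ± 0.22, adjusted p = 0.00347) and 4.54 in sucrose flies (0.63 ± 0.22, adjusted p = 0.0409). Its neighbour in name, Acox57D-p, fell from 13.5 to 9.09 RPKM in sorbose (-0.53 ± 0.17, adjusted p = 0.0295) and 6.81 in sucrose flies (-0.92 ± 0.17, adjusted p = 0.00109). Acox3 rose in sorbose flies by 0.41 on the log2 scale.

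The ketone body enzyme SCOT, which returns ketone bodies to coenzyme A esters, had the largest difference from odor of these pathway lists. Odor flies had 40.8 to 120.6 RPKM, sorbose flies 16.1 to 39.1 and sucrose flies 12.5 to 24.2, so that no trained fly reached the lowest odor fly. The log2 differences were -1.58 ± 0.27 for sorbose (adjusted p = 0.00196) and -2.01 ± 0.27 for sucrose (adjusted p = 0.000191). The other 3 genes of that list were not called. The shares called lower over all genes tested were 12.2% for sorbose and 14.4% for sucrose, and the share without overlap is not given here.

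Regulators of fat use had 6 genes tested, of which 3 fell and 1 rose in sucrose flies, and 3 fell and 2 rose in sorbose flies, beside the same shares over all genes. The insulin-responsive transcription factor foxo had a mean of 36.1 RPKM with odor alone, 19.7 after sorbose and 18.7 after sucrose (log2 differences -0.83 and -0.88 ± 0.18). Pdk, the kinase that holds back pyruvate dehydrogenase, had 126.3, 82.7 and 73.2 RPKM (-0.61 and -0.76 ± 0.13). The coactivator srl, the fly PGC-1, rose from 1.26 to 2.64 and 2.72 RPKM (0.83 and 0.84 ± 0.17). AkhR, the receptor for adipokinetic hormone, rose in sorbose flies (0.69 ± 0.22, adjusted p = 0.0295), and its log2 difference in sucrose flies was 0.14 (adjusted p = 0.681).

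**Figure D4:**
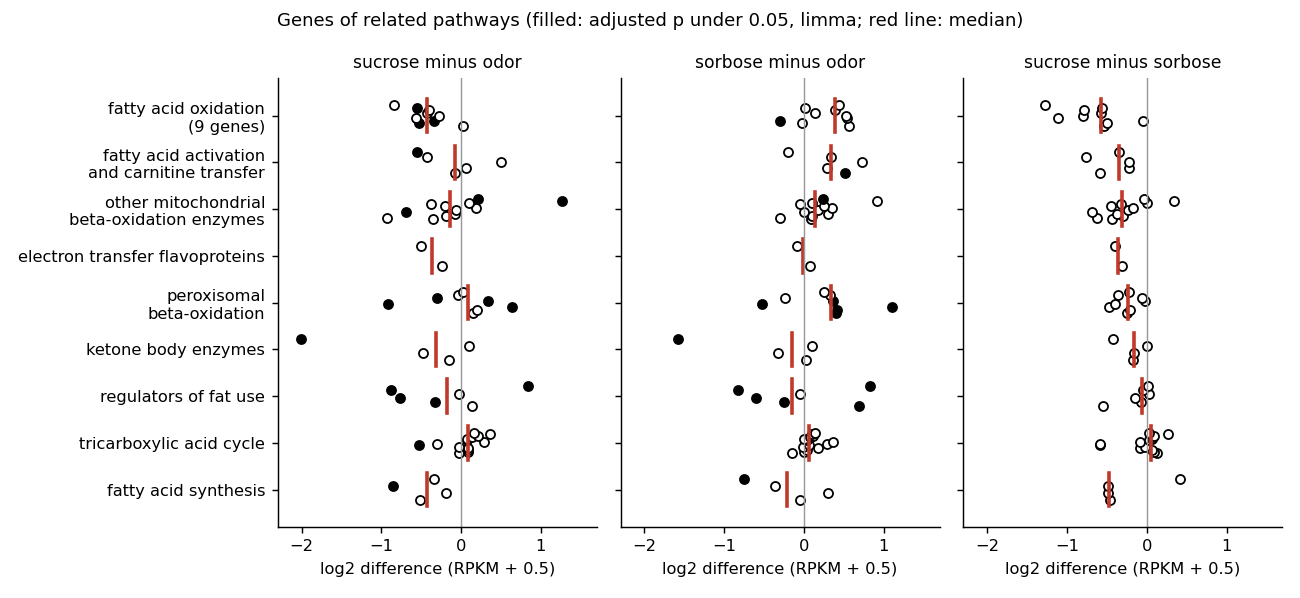
Log2 differences of the genes of each pathway list in the 3 comparisons, each point a gene, filled at an adjusted p under 0.05 in limma, with the list's median in red. SCOT is the filled point farthest left in both comparisons with odor, and in the comparison of sucrose with sorbose no point is filled.

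Of 14 genes of the tricarboxylic acid cycle, 1 was lower in sucrose flies, Scsalpha1, a subunit of succinyl-CoA synthetase (294.7 to 196.4 RPKM, adjusted p = 0.0413), and none was called in sorbose flies. Of 4 genes of fatty acid synthesis, AcCoAS, the acetyl-CoA synthetase, fell from 336.8 to 185.0 RPKM in sucrose flies (-0.86 ± 0.15, adjusted p = 0.000803), and Desat1, a fatty acid desaturase, from 1086 to 645.6 RPKM in sorbose flies (-0.75 ± 0.26, adjusted p = 0.0420). The shares called lower over all genes were 14.4% for sucrose and 12.2% for sorbose. None of these list genes was called between sucrose and sorbose flies. In that comparison log2 differences were negative for 9 of the 9 genes of the set, 5 of 5 activation and transfer genes and 11 of 12 other mitochondrial enzymes. They were negative for 2 of 2 flavoproteins, 8 of 8 peroxisomal genes, 4 of 4 ketone body genes and 4 of 6 regulators. For the tricarboxylic acid cycle 5 of 14 were negative and for fatty acid synthesis 3 of 4, against 52.5% of all genes tested. Some of these differences are very small (Hnf4 -0.044, Egm -0.0027, Hmgs -0.0042). The enzymes of the set move together from fly to fly, and the lists were chosen with earlier results known. These counts are therefore not separate observations and were not tested.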

How the data were processed

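The authors deposited RPKM values, 1 column for each of 18 single heads. Their processing notes name CASAVA 1.8.2, TopHat2 2.0.13 and dm6, as does a passage of their methods on these data sets for aligner and build, while another passage names an older aligner and build. Gene identifiers and lengths matched dm6, which gave names and coordinates (Ensembl) to 17253 of 17559 genes. Library sizes were recovered from the steps of the RPKM values, and 98.0% of values came out whole within 0.02 reads. The 11062 genes with a mean RPKM of 0.5 or more were tested on log2(RPKM + 0.5), a scale that understates changes of low genes, with limma 3.58.1 in R 4.3.3 (eBayes with trend, 1 fit of the 3 groups). P-values were adjusted by Benjamini-Hochberg over all of them and called under 0.05. On simulated reads for sucrose against odor (10560 genes, 200 changed by 1 on the log2 scale) 95.5% were recovered and 6.37% of calls were false. These rates hold for that setting only. Recovery of smaller changes, such as those of whd and CPT2, was not tested. Nor were rates for enzymes that vary widely and move together from fly to fly. Hnf4 was related to the enzymes with 100000 permutations of flies within groups. Named are all members, at most 4 called genes of each other list, and the 2 genes most like each member. A called gene that falls under this rule is not reported here. Members and lists were chosen with earlier results of these data known. Of 93 list entries, 8 were not matched and were not analysed here. Nothing says that flies of a group came from separate cultures, so p-values measure the spread between these flies. The alternatives were other pseudocounts, filters and scalings, limma voom on recovered reads, a replicate block, quality weights, fits of the groups compared and leaving out each fly.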

Additional observations from a re-analysis of the deposited data

Results flagged for a closer look

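A fly stood far from the other 5 of its group in 6 of the 27 sets of values (9 genes in 3 groups), by Dixon's test at the 95% level, where chance gives about 1.35. All 6 concern odor replicate 2 or sucrose replicate 3. For CPT2 the value of odor replicate 2 was 5.105 as log2(RPKM + 0.5), or 33.9 RPKM, with the other odor flies at 13.5 to 18.1 RPKM. In sucrose replicate 3 it was 4.285 for CPT2 (19.0 RPKM, others 10.3 to 12.5), 6.132 for Mtpalpha (69.6, others 29.2 to 39.4), 6.727 for Mtpbeta (105.5, others 49.1 to 65.3), 7.41 for yip2 (169.6, others 52.4 to 75.4) and 6.582 for scu (95.3, others 53.7 to 66.3). Since the enzymes move together from fly to fly, these 5 sets of the sucrose group are not separate observations. No cause was tested.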

How the results depend on the processing

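The number of the 9 genes called was 3 for sucrose against odor, 1 for sorbose against odor and 0 for sucrose against sorbose. Over all 11062 genes tested, 3041, 2702 and 1 were called in the same comparisons. With quality weights the counts of the 9 genes were 3, 2 and 1, and with only the 2 groups compared they were 2, 0 and 0. Leaving out each fly gave 1 to 3, 0 to 5 and 0. For the comparisons with odor, genes called in all with quality weights or only the 2 groups are not given here. Those counts are therefore not set against a share. Genes called in all were 1771 to 3179 for sorbose against odor, 2224 to 3488 for sucrose against odor and 1 to 49 for sucrose against sorbose with a fly left out (49 without sorbose replicate 2). The last count was 19 with quantile normalization, 8 with only the 2 groups compared, 308 with quality weights and 2 with limma voom on recovered reads. The cause was not tested. In sucrose against sorbose the 8 enzymes were lower in every one of the 28 alternatives, and at least 6 of the 8 kept an unadjusted p under 0.05 in limma. Leaving out an odor fly, changing the filter, adding a replicate block or fitting only these groups cannot change the log2 difference. Its sign was therefore fixed in those fits. With the replicate number as a block, 2, 1 and 0 of the 9 genes were called, and CPT2 was lost for sucrose against odor (adjusted p = 0.0731). Genes called in all with the block are not given here. Deviations of same-numbered flies were related with mixed signs (18 pairs, r from -0.34 to 0.44, 7 over 0.1), and those of replicate 2 were all positive. Flies of different numbers were not compared, so this does not decide whether the numbers pair flies. The numbers were not taken to pair them in the main fit. Each of the 9 genes had at least 875 reads in every fly.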
